A study of Caenorhabditis elegans with 3 samples.

Results

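The kinetochore is the protein assembly that joins a chromosome to the spindle microtubules during cell division. Its genes were examined here as possible targets of LIN-15B, a nuclear DNA-binding protein of the synMuv B class, in first-stage (L1) larvae of Caenorhabditis elegans. The 10 genes described are ska-1, ska-3, knl-1, knl-3, ndc-80, him-10, mis-12, kbp-1, hcp-3 and hcp-4, out of 19973 protein-coding genes in the annotation. They were chosen with earlier results of these data known, from the SKA complex, the KNL-1/MIS-12/NDC-80 (KMN) network and centromeric chromatin. Other genes of the network and of centromeric chromatin are described further below. A peak was counted for a gene when its summit, the position of highest signal, lay from 1000 bp upstream of the gene to the gene's end. Such windows had a median length of 2288 bp for the 10 genes and 3027 bp for all protein-coding genes.

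LIN-15B was mapped by chromatin immunoprecipitation and sequencing (ChIP-seq) in 1 group of 3 biological replicates, and no other genotype, stage or control sample was analysed here. All larvae were of strain OP184, genotype unc-119(tm4063) III; wgIs184, and were taken as whole animals of both sexes together. This strain carries lin-15B with an eGFP tag as an inserted transgene, and the listed genotype names no lin-15B mutation. The peaks are averaged over all tissues of the larva. The labels trace replicates 1 and 2 to a stock centre and give fragments of 150 to 350 bp. Replicate 3 was taken from the laboratory's own stock, with a microtip used for sonication, and its labels place GFP-FLAG at the C-terminus. The antibody is labelled only with the name of the protein.

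Worm chromosomes are holocentric: the centromeric histone and the kinetochore on top of it lie along the whole chromosome. HCP-3 (CENP-A) and HCP-4 (CENP-C) form the chromatin base, the KMN network of KNL-1, the MIS-12 complex and the NDC-80 complex is built on it and holds the microtubule, and the SKA complex strengthens that hold. These proteins are needed in dividing cells. In many animals, genes of this kind are repressed in resting cells by the DREAM complex, which reaches promoters through E2F and DP at E2F sites and through LIN-54 at a second short element, the CHR. DREAM subunits and LIN-15B are both encoded by synMuv B genes of the worm.

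The 4 deposited lists used, 1 for each replicate and 1 series-wide, held 30000 peaks each and included background, so a listed peak alone carries little weight: 66.8% of all genes had one in the series-wide list. The series-wide list was made from the alignments of the same 3 replicates, so its ranks are not independent of theirs. The number of peaks with a deposited q score of 2 or more was 538, 3083 and 2206 in replicates 1, 2 and 3. Read depth is unknown, because the lists hold no counts. Peak strengths are the authors' signal values on a scale of each list's own, so peaks were compared by their rank, where 1 is the strongest. A series-wide peak is called consistent when an overlapping peak was found in each replicate and all 3 pairs of replicates passed a threshold. The threshold was an irreproducible discovery rate (IDR) of 0.05 or less. The IDR of a peak is the estimated share of irreproducible peaks among all matched peaks that score at least as well. It is not the chance for that peak alone. In all, 926 peaks were consistent.

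Consistent LIN-15B peaks were found at 5 of the 10 genes: ska-3, ska-1, knl-3, ndc-80 and knl-1. By the same rule, 6.44% of all protein-coding genes had a consistent peak in their window. All 5 peaks lay within the promoter, taken as 500 bp before to 200 bp after a transcript start, where 5.25% of all genes had one. The share differed by chromosome, and was 10.3% of all genes on chromosome I, 11.7% on III, 6.74% on IV and 3.62% on V, the chromosomes that carry the 10 genes. The peaks of the other 5 genes, hcp-3, mis-12, kbp-1, hcp-4 and him-10, were weaker, and none of these was found upstream of the gene in every replicate. A peak of rank 1000 or better was present in every replicate for the same 5 of 10 genes, against 4.52% of all genes. In single lists the count of the 10 genes with such a peak was 5 in replicate 1, 6 in replicate 2, where hcp-3 was added, 5 in replicate 3 and 5 series-wide. The share of all genes was 6.45%, 6.83%, 7.31% and 7.12% in the same order. A listed peak of any rank was present in every replicate for 7 of the 10 genes, against 38.7% of all genes.

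**Figure D1:**
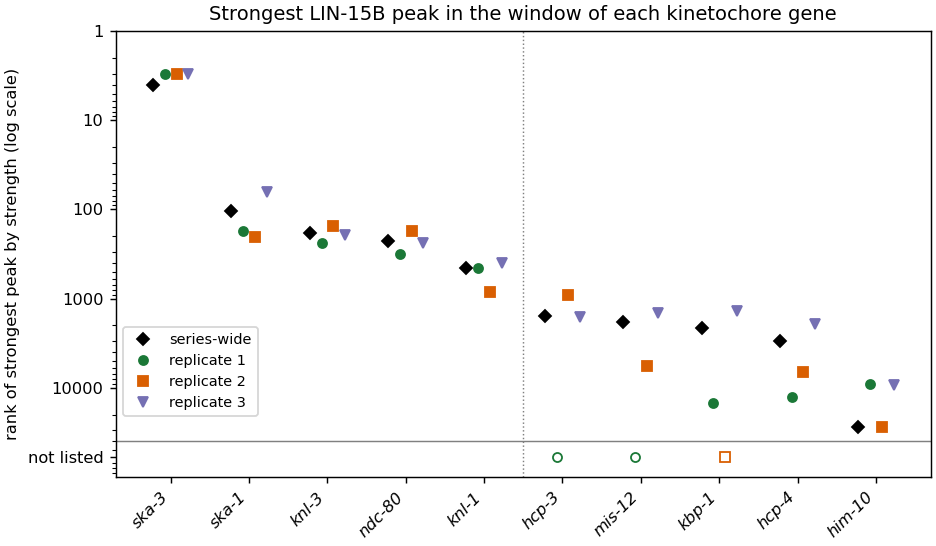
Rank of the strongest LIN-15B peak of each of the 10 kinetochore genes (log scale, 1 = strongest) in the series-wide list and in each of the 3 replicates; a gene without a listed peak is drawn at the edge marked as not listed. The points of ska-3 lie at rank 3 in every replicate, those of ska-1, knl-3, ndc-80 and knl-1 between 63 and 840, and those of the other 5 genes spread between 918 and 27778 or are missing.

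The SKA complex carried the strongest of these peaks. At ska-3 (WBGene00018830, chrIII:5677969-5679005, minus strand), which encodes a subunit of the complex, the peak ranked 3 in each of the replicates 1, 2 and 3, and 4 in the series-wide list. Its strength was 237, 221 and 314 in replicates 1, 2 and 3, where the strongest peak of each list had 284, 252 and 432. The mean rank was 3.0 ± 0.0 (SD, n = 3), place 2 of the 926 consistent peaks, so the position among the strongest peaks was the same in all 3 replicates. The summit lay 125 bp upstream of ska-3 and 168 bp upstream of rps-12, a gene of the small ribosomal subunit that is transcribed away from it. Only 292 bp separate these genes, and the peak alone does not assign LIN-15B to either of them. The snoRNA gene F54E7.10, 248 bp from the summit, shares the peak as well.

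For ska-1 (WBGene00013725, chrI:10473513-10474435, minus strand), the partner subunit, the peak ranked 174, 206 and 63 in replicates 1, 2 and 3. The mean was 148 ± 75.0 (SD, n = 3), and replicate 3 stood above both others. In the series-wide list it ranked 103. The summit was 341 bp upstream of ska-1 but 46 bp upstream of the divergent gene Y106G6H.16, whose start is the nearer one. Weak peaks in the same window, at series-wide ranks of 14519 and 26387, were not consistent.

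KNL-1 is the scaffold of the KMN network and a docking site for checkpoint proteins. Its gene knl-1 (WBGene00002231, chrIII:8250632-8253943, plus strand) had a peak of rank 451 in replicate 1, 840 in replicate 2 and 394 in replicate 3. This was the weakest of the 5 consistent peaks, with a mean rank of 562 ± 243 (SD, n = 3), place 460 of 926, and a largest IDR over the pairs of 0.00109. It is also the simplest to assign. The summit lay 158 bp upstream of knl-1, no other gene had the peak in its promoter, and the neighbour on that side, C02F5.2, runs in the same direction and ends 434 bp before knl-1 starts.

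The NDC-80 complex makes the direct contact with the microtubule. The peak at ndc-80 (WBGene00003576, chrIV:10086137-10088437, plus strand), the gene of its namesake subunit, ranked 312 in replicate 1, 175 in replicate 2 and 237 in replicate 3, a mean of 241 ± 68.6 (SD, n = 3), and 225 series-wide. The summit was 256 bp upstream of ndc-80 and 430 bp upstream of the divergent collagen gene col-2. The intergenic stretch of 685 bp also holds the piRNA gene 21ur-14295, 398 bp from the summit. A binding partner, HIM-10 (the NUF2 subunit), gave the opposite picture. At him-10 (WBGene00001869, chrIII:5803260-5805112, plus strand) the best listed peaks ranked 9058 in replicate 1, 27704 in replicate 2 and 9235 in replicate 3, and 27778 series-wide. The peak of replicate 2 lay 956 bp inside the gene and did not overlap the series-wide peak, which was 65 bp upstream. The him-10 start is 99 bp from that of polq-1, a DNA polymerase gene on the other strand.

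Among the genes of the MIS-12 complex, which links KNL-1 and NDC-80 to the centromere, knl-3 had a consistent peak, and mis-12 and kbp-1 did not. The peak of knl-3 (WBGene00020392, chrV:1869213-1870558, plus strand) ranked 235 in replicate 1, 153 in replicate 2 and 193 in replicate 3, a mean of 194 ± 41.0 (SD, n = 3), and 185 series-wide. Its summit, 413 bp upstream of knl-3, was nearer to T10B5.3, at 229 bp. Here the 2 genes overlap by their annotated starts, and the summit falls in a 5′ untranslated exon of a T10B5.3 transcript. The peak of mis-12 (WBGene00021648, chrI:3604515-3605744, minus strand) ranked 5688 in replicate 2 and 1452 in replicate 3, and replicate 1 had none. Its series-wide peak, of rank 1810, lay 83 bp upstream. For kbp-1 (WBGene00020064, chrIII:6869633-6870348, plus strand) the rank was 14865 in replicate 1 and 1388 in replicate 3, and replicate 2 had none. The series-wide kbp-1 summit, of rank 2129 and 119 bp upstream, lay nearer to cra-1 on the other strand, at 54 bp. In both genes replicate 3 held the best-ranked peak.

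Neither hcp-3 nor hcp-4, of the centromeric base, had a consistent peak. For hcp-3 (WBGene00001831, chrIII:9615306-9616470, minus strand), the histone gene, the peak 147 bp upstream ranked 1559 series-wide, 918 in replicate 2 and 1618 in replicate 3. It passed the IDR threshold between those 2 replicates, at 0.00405, but no peak was listed in the window in replicate 1. A second summit 682 bp upstream ranked 3100 series-wide, and replicate 2 had one at 726 bp with rank 1662. For hcp-4 (WBGene00001832, chrI:3862833-3865938, minus strand) a peak 107 bp upstream ranked 2967 series-wide, 6592 in replicate 2 and 1927 in replicate 3, with an IDR of 0.118 between these replicates. In replicate 1 the one listed peak was 1377 bp inside the gene, at rank 12828. Replicate 1, the list with the fewest peaks at a q score of 2 or more, lacked the upstream peaks of hcp-3, mis-12 and hcp-4. How far its depth or quality set these calls was not tested.

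**Figure D2:**
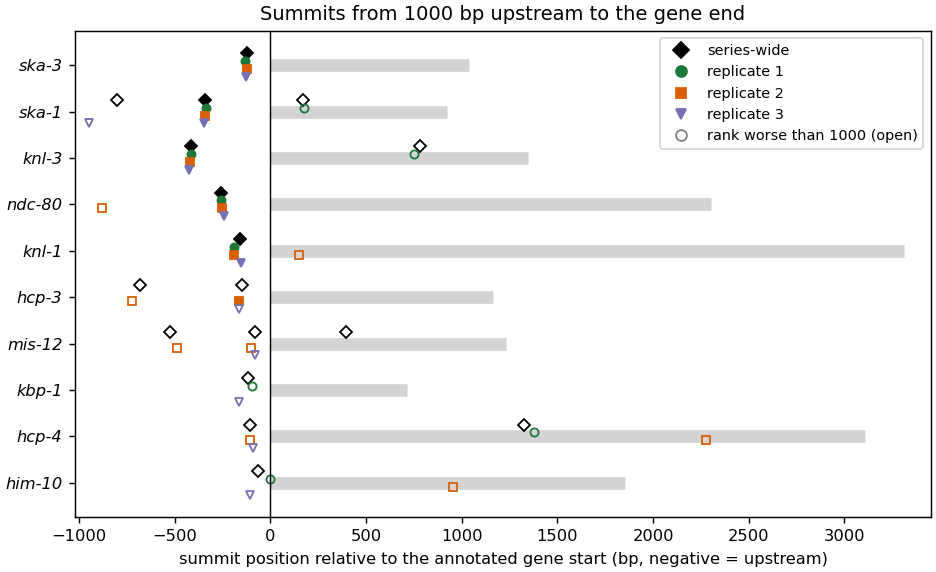
Position of every listed peak summit of the 10 genes relative to the annotated gene start (bp, negative upstream), by list; grey bars span the genes and open symbols mark ranks worse than 1000. The summits of the 5 consistent peaks lie upstream in all lists, between 121 and 424 bp from the gene start in the replicates. The strongest series-wide summits of the other 5 genes also lie upstream, at 65 to 147 bp. Other open symbols, some of them weaker peaks of genes with a consistent peak, scatter from far upstream to inside the genes.

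Overlap with a peak of each replicate was part of the rule, and within each consistent peak the replicate summits lay close together. The summits of the 3 replicates spanned 10 bp at ska-3, 8 bp at ska-1, 11 bp at knl-3, 13 bp at ndc-80 and 38 bp at knl-1. Close summits were not particular to these peaks. In the 2 replicates with a match, they lay 163 and 167 bp upstream at hcp-3 and 100 and 83 bp at mis-12. At hcp-4 they lay 109 and 90 bp upstream, but at kbp-1 99 and 167 bp and at him-10 3 and 108 bp. Measured to the member's own start, the series-wide summits of the 5 consistent peaks lay 125 to 413 bp upstream, with a median of 256 bp. To the nearest start of any protein-coding gene the median was 158 bp, the same as the 158 bp over all 756 consistent promoter peaks. Of the 5 peaks, 4 lay in the promoter of another protein-coding gene too, against 38.8% of the consistent promoter peaks of the series. When each peak was given only to the gene with the nearest transcript start, 3 of the 10 genes kept a consistent peak, namely ska-3, knl-1 and ndc-80, against 4.17% of all genes. When promoters were narrowed to 250 bp before and 100 bp after the start, ska-3 and knl-1 were the 2 that remained, against 3.51% of all genes. Annotated starts of many worm genes are trans-splice sites, so the true transcription start can lie further upstream.

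The sequences around the summits are shown because they hold the same kind of short element in 4 promoters on 3 chromosomes. Each is read 5′ to 3′ on the strand of the kinetochore gene, from the RefSeq copy of build WBcel235 (ce11), with 70 bases on either side of the series-wide summit, or 29 bases in all where an untranslated exon lies there. Capitals mark matches to any of 4 motifs searched on both strands: E2F-like, with the forms TTCCCGC and also TTCGCGC, as well as TTGCCGC and also TTGGCGC, CHR-like, with the forms TTCGAA and also TTTGAA, then GAGCGC, and last GAGAGA. The sites are chrIII:5679060-5679200 (minus strand) for ska-3, chrIII:8250404-8250544 for knl-1, chrIV:10085811-10085951 for ndc-80 and chrV:1868791-1868819 for knl-3 (plus strand for these 3).
ska-3: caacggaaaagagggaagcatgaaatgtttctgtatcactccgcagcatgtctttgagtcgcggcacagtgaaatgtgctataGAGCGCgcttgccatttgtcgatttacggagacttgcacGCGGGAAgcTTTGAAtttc
knl-1: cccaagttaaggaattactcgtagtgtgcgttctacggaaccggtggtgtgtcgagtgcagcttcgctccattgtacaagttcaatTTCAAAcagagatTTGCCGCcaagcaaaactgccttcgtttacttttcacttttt
ndc-80: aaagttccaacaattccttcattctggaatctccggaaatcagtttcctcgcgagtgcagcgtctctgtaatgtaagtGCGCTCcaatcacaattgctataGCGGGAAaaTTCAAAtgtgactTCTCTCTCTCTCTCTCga
knl-3: tgcgtcagtgacggggTTGGCGCGGCAAa
In ska-3 and ndc-80 the E2F-like and the CHR-like match are 2 bases apart and in the same order along the gene's strand. In knl-1 they are 7 bases apart, in the other order. In knl-3 the capitals are 2 E2F-like matches that overlap, and its CHR-like matches lie outside the bases shown. The run at the end of the ndc-80 stretch matches GAGAGA on the other strand.

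The motifs were chosen with earlier results of these data known, so their counts are a description and not an independent test. An E2F-like match was present within 100 bp of the summit at 5 of the 5 consistent member peaks. Its centre lay 10 to 55 bp from the summit, on the side towards the member gene: 55 bp at ska-3, 44 bp at ska-1, 10 and 15 bp for the overlapping pair at knl-3, 34 bp at ndc-80 and 32 bp at knl-1. By comparison, 23.9% of the 911 consistent peaks of no kinetochore gene held such a match, and so did 6.89% of windows of this length centred 158 bp upstream of all protein-coding genes. Among the 5 genes without a consistent peak, him-10 held an E2F-like match and hcp-3, mis-12, kbp-1 and hcp-4 held none. In promoter peaks of a series-wide rank worse than 1000 and up to 3000, not consistent and of no kinetochore gene, the share was 15.4%. A match is a run of letters and does not show that a factor was bound there.

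For contrast, the 50 bases on either side of the weaker summits of kbp-1 (chrIII:6869464-6869564, plus strand) and hcp-3 (chrIII:9616567-9616667, minus strand) hold no E2F-like match.
kbp-1: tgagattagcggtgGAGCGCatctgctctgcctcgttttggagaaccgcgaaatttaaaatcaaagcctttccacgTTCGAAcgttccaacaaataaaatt
hcp-3: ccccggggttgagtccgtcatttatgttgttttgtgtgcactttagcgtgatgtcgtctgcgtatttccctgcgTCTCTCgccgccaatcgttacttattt
The capitals are a GAGCGC and a CHR-like match in kbp-1 and a GAGAGA match on the other strand in hcp-3. Not every weaker site lacked an E2F-like match: him-10 held one, 28 bp from its summit. So did 7 of 11 further kinetochore genes whose series-wide peak was not consistent.

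CHR-like matches were present at 5 of 5 consistent member peaks and also at the strongest peak of 5 of 5 of the other members, while 53.5% of the consistent peaks of no kinetochore gene and 56.0% of all gene windows had one. An E2F-like and a CHR-like match within 10 bases of each other, a limit chosen after these sequences were seen, occurred at 3 of the 5 consistent member peaks, at 8.12% of the consistent peaks of no kinetochore gene and at 1.18% of all gene windows. It occurred at 0 of the 5 members without a consistent peak. Among the other 23 kinetochore genes it occurred at 2 of the 10 with a consistent peak and at 2 of the 11 with another series-wide peak. At ska-1 the 2 matches were 61 bases apart and at knl-3 15. GAGCGC was present at ska-3 and ndc-80, 2 of 5, against 31.4% of the consistent peaks of no kinetochore gene and 3.97% of all gene windows. GAGAGA was present at ndc-80, 1 of 5, against 31.8% and 15.3%. The 5 windows had a median GC content of 38.8%, the other 921 consistent peaks 41.3% and all gene windows 33.8%, and their median observed-to-expected CpG ratios were 1.37, 1.42 and 1.03 in the same order.

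**Figure D3:**
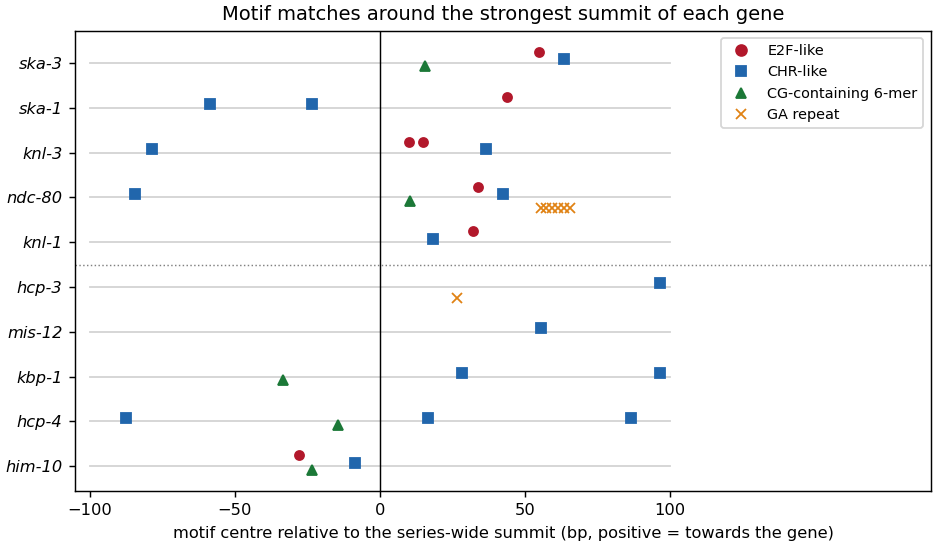
Positions of motif matches within 100 bp of the series-wide summit at the 10 kinetochore genes (x axis: bp from the summit, positive towards the gene); the legend's CG-containing 6-mer is GAGCGC and its GA repeat is GAGAGA, and the dotted line separates consistent peaks (above) from the others. Each consistent member peak has an E2F-like match between 10 and 55 bp on the gene side, and among the 5 weaker members only him-10 has one.

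To place these genes in their pathway, 23 further kinetochore genes were examined by the same rule. They too were chosen with earlier results of these data known, so their count is a description and not an independent test. Their windows had a median length of 3445 bp, against 3027 bp for all protein-coding genes. Of the 23 genes, 10 had a consistent peak in the window, against 6.44% of all genes. For 8 of the 10 it lay at the gene's own promoter, where 5.25% of all genes had one. The strongest of the 10 peaks belonged to the NDC-80 complex. There kbp-4, the gene of its SPC24-like subunit, ranked 26 in replicate 1, 37 in replicate 2 and 31 in replicate 3. That summit lay 140 bp upstream of kbp-4 and 14 bp inside the divergent gene rab-18, in an exon. The partner gene kbp-3, which is SPC25-like, ranked 806, 588 and 557 in replicates 1, 2 and 3, and nurf-1 shares its peak. Of the 10 consistent peaks, 8 lay in the promoter of another protein-coding gene. These include the peaks of zwl-1 and cls-2, which lay outside the gene's own promoter. Over the series, 38.8% of the consistent promoter peaks lay in the promoters of 2 or more genes. With ndc-80, 3 of the 4 genes of this complex had a consistent peak, and him-10 was the exception. The SKA complex had 2 of 2 and KNL-1 1 of 1. The MIS-12 complex had 1 of 4, knl-3, and the centromeric base 1 of 4, knl-2, which encodes a factor for loading the centromeric histone. These counts include ska-1, knl-3 and kbp-4, whose summits lay nearer to the start of another gene. The knl-2 peak was among the weaker ones, with ranks of 602, 1808 and 1222 in replicates 1, 2 and 3 and a largest IDR of 0.0452.

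Further groups act in checkpoint signalling, in the chromosomal passenger complex and in microtubule dynamics. In each group named here, part of the genes had a consistent peak, where the same rule called 6.44% of all genes. Of the spindle checkpoint genes, mdf-2 (MAD2) and san-1 (MAD3), 2 of 5, had consistent peaks of series-wide rank 264 and 550. The peak of mdf-1 (MAD1), of series-wide rank 598, ranked 595 in replicate 2 and 459 in replicate 3 but had no overlapping peak in replicate 1. In the RZZ group, which recruits dynein and the checkpoint, czw-1 and zwl-1 counted, 2 of 4 with Spindly. Of the chromosomal passenger genes and klp-7, icp-1 (INCENP) and bir-1 (survivin) counted, 2 of 5. Of hcp-1, hcp-2 and cls-2, the last counted. The zwl-1 summit lay 574 bp upstream, in the promoter of dot-1.1, and the cls-2 summit 981 bp upstream, outside its promoter window. E2F-like matches were present at 10 of these 10 consistent peaks, and at 7 of the 11 genes whose series-wide peak was not consistent. Among peaks of no kinetochore gene, the share was 23.9% for consistent peaks. It was 15.4% for promoter peaks that were not consistent, of series-wide rank worse than 1000 and up to 3000. The motifs were chosen with earlier results of these data known. The genes cpar-1 and kbp-2 had no series-wide peak.

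**Figure D4:**
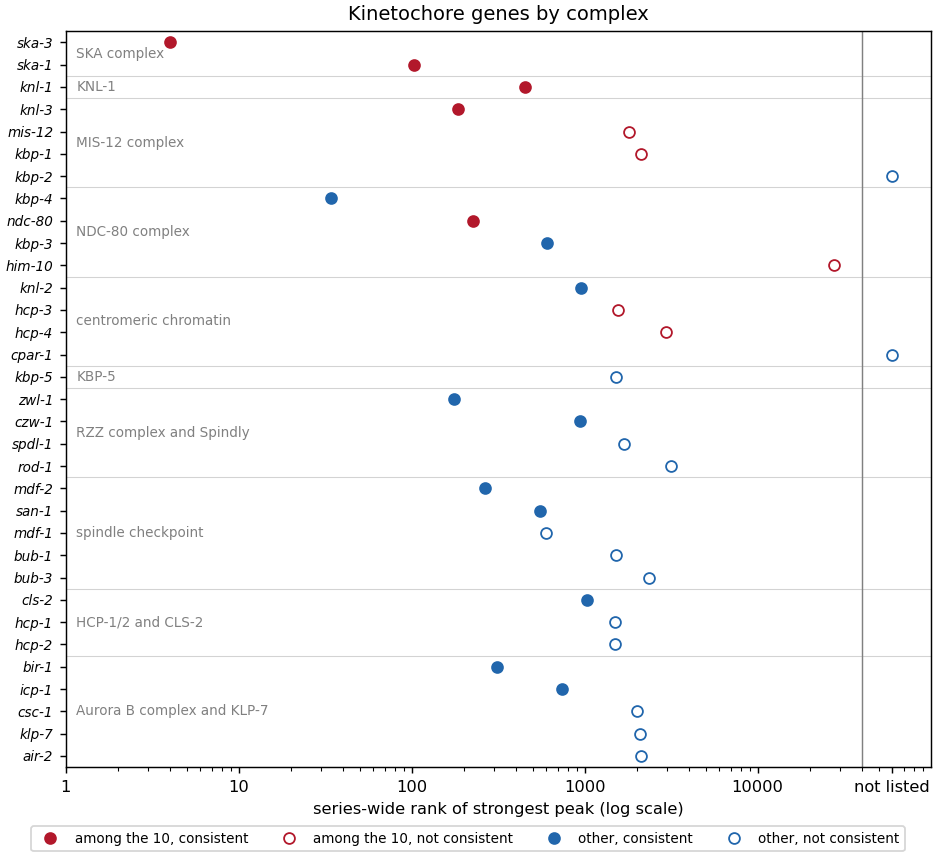
Series-wide rank of the strongest peak (log scale) for all 33 kinetochore genes, by complex; filled points are consistent peaks, red points the 10 genes and blue points the 23 others. Filled points make up the whole SKA complex and 3 of 4 genes of the NDC-80 complex, and all but 4 of the 18 open points lie between ranks 1505 and 3150.

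The count of those 23 genes depended on replicate 1: without it, 18 had a consistent peak, where the share of all genes was 11.6%. Among the 10 genes the count without replicate 1 was 6, with hcp-3 added, beside the same 11.6%. Most of the weaker peaks sat at intermediate ranks. A peak of series-wide rank 300 or better was present at 40.0% of the 10 genes, 13.0% of the 23 others and 2.4% of all genes. At rank 1000 or better the shares were 50%, 43.5% and 7.12%. At rank 3000 or better they were 90.0%, 87.0% and 16.2%, and him-10 was the member left out.

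**Figure D5:**
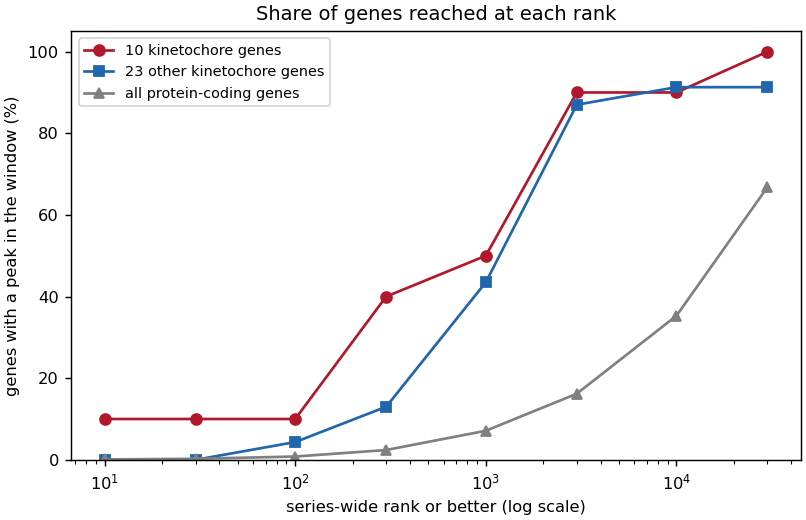
Percent of genes with a peak in their window at or above a series-wide rank (x axis, log scale), for the 10 kinetochore genes, the 23 others and all 19973 protein-coding genes. The curves of both kinetochore sets lie above that of all genes from rank 100 on, and at rank 3000 they reach 90.0% and 87.0%, against 16.2%.

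For each consistent peak, the promoter peak of another gene with the most similar ranks was found among 751, by distance in log10 rank over the 3 replicates. For ska-3 this was the peak shared by lin-54 and rpl-12, with ranks of 5, 4 and 4 in replicates 1, 2 and 3 and a distance of 0.284. The gene lin-54 encodes the DREAM subunit that reads the CHR element. For ska-1 it was the peak of nurf-1, a chromatin remodelling gene, for knl-3 that of pdhk-2, for ndc-80 the one shared by F01G4.6 and pfd-1, and for knl-1 that of mog-4. Their distances were 0.0904, 0.0709, 0.0443 and 0.0646. Likeness of rank over 3 replicates is a description of strength and says nothing of shared control.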

How the data were processed

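The data were ChIP-seq peak lists of 3 biological replicates of 1 group, plus a series-wide list. Neither aligner nor peak caller is given in the sources used here. The authors' deposited lists on ce11 give each peak's signal value (strength), used for ranks within each list, its q score, used as an alternative ranking since some values lie below 0, and a summit offset. Each list was deposited as peaks and background for a replicate comparison, limited to 30000 peaks. Lists on ce10 were not used.

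Series-wide peaks were paired in each replicate with the strongest peak that overlapped them by 1 bp or more. IDR was fitted as a copula mixture on all matched peaks of each pair (6511, 7012 and 6127) with Python 3.11.15, numpy 2.4.6 and scipy 1.17.1, and tested on simulated data. Genes are those of Ensembl release 115, and promoters use protein-coding transcripts. The 10 genes, the 23 others and the motifs were chosen with earlier results of these data known. Counts are set beside the share of all genes, with no test, since there is 1 group. Named were all 10 members, genes sharing their peaks, the other kinetochore genes with a consistent peak and the nearest peak by rank; mdf-1, cpar-1, kbp-2, C02F5.2, polq-1 and cra-1 were added after their values were seen. IDR thresholds, matching, windows, ranking and replicates were varied. The sequence of sites on chromosome I is not printed.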

Additional observations from a re-analysis of the deposited data

How the results depend on the processing

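The 5 members with a consistent peak in the window stayed 5 under an IDR threshold of 0.01 or 0.1, summits within 100 bp, presence among the 1000 strongest of every replicate, a q score of 2 or more in every replicate, and without replicate 2 or 3. The count was 6 without replicate 1, where the share of all genes was 11.6%, and also 6 when a pass in any pair sufficed, where it was 12.4%, against 6.44% as reported. Counting only the nearest transcript start gave 3 in the window and 3 at the promoter (4.17% and 3.77% of all genes), and the promoter of 250 bp upstream to 100 bp downstream gave 2 (3.51%). The count of 10 among the 23 other kinetochore genes moved broadly with the share of all genes, given in brackets. It was 19 when any pair sufficed (12.4%) and 7 at an IDR threshold of 0.01 (5.36%), where czw-1, cls-2 and knl-2 were lost. It was 6 among the 1000 strongest of every replicate (4.49%) and 5 with a q score of 2 or more in every replicate (3.88%). The count was 18 without replicate 1 (11.6%), 11 without replicate 2 (7.31%) and 11 without replicate 3 (6.98%). Ranked by q score, the peaks of ska-1, ska-3, knl-1, knl-3 and ndc-80 were all tied at rank 1 in every list, since 461 to 1501 peaks of each list share the highest score. By q score, hcp-3 also ranked 1 in replicate 2 and kbp-1 in replicate 3, and him-10 ranked 6038 series-wide and 7673 in replicate 1. Within 50 bp of the summit GAGAGA was found at 0 of 5 member peaks and E2F-like matches at 4. No paired analysis was possible because there is 1 group. Unknown depth, 3 replicates and shared promoters limit these results: no interval from read counts can be given, and a weak peak cannot be told from absent binding.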
